A study of Homo sapiens with 2 samples.

Results

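Mature microRNAs (miRNAs) whose precursors share their genomic position with small nucleolar RNA (snoRNA) genes were followed in exosomes, the small vesicles that cells release. The set comprised 10 of the 2565 miRNA probes on the array, chosen by name: hsa-miR-664a-3p, hsa-miR-664a-5p, hsa-miR-664b-3p, hsa-miR-664b-5p, hsa-miR-1291, hsa-miR-1248, hsa-miR-3651, hsa-miR-3653-5p, hsa-miR-3607-5p and hsa-miR-3607-3p (the prefix hsa, for human, is left out below). Each had 1 spot per array. The choice used no cut on signal, but earlier results of these data were known when it was made. The vesicles came from cultures labelled HuH-7-M and HuH-7-P, both of the human hepatocellular carcinoma line HuH-7, and the labels do not spell out M and P. The series title places them in work on intrahepatic metastasis of liver cancer. Both cultures were grown with 10% fetal bovine serum and then moved to advanced DMEM, and vesicles were pelleted at 110000 g for 70 min at 4 °C. The Cy5-labelled RNA of each culture was read on 1 array in a single colour, so no difference has a replicate, no test between the cultures was possible, and culture, preparation and array cannot be told apart. Whether less of a miRNA per vesicle or fewer vesicles gave a lower signal cannot be told apart either.

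snoRNAs guide chemical modification of ribosomal and small nuclear RNAs. Those of the H/ACA class, named SNORA, guide pseudouridylation and end a few bases after a conserved ACA, while those of the C/D class, named SNORD, guide ribose methylation. Most human snoRNAs are released from introns of protein-coding genes. Some snoRNAs are also cut into miRNA-sized fragments, a part of which can associate with Argonaute proteins, and several entries in miRNA catalogues were later recognised as such fragments.

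In the RefSeq annotation of GRCh38.p14, 5 of 1913 miRNA genes overlapped any of 1199 snoRNA genes, and all 5 encode members of the set. MIR664A overlapped SNORA36B over 74 of its 82 bases, inside RAB3GAP2, which encodes a subunit of a Rab-regulating complex. MIR664B lay wholly inside SNORA36A, in the gene for dyskerin (DKC1), itself the pseudouridine synthase of H/ACA particles. MIR1291 shared 75 of 87 bases with SNORA2C in KANSL2, which encodes a chromatin regulator. MIR1248 shared 102 of 106 bases with SNORA81 in EIF4A2, the gene of a translation initiation helicase. MIR3651 shared 87 of 90 bases with SNORA84 in IARS1, the gene of isoleucyl-tRNA synthetase. All 5 miRNA genes ran on the strand of their host gene. mir-3607 was listed there as another name of SNORD138, a C/D snoRNA of 63 bases in COX7C, which encodes a subunit of cytochrome c oxidase. miR-3653 is known as an overlap with SNORD125, which lay inside AP1B1, the gene of a clathrin adaptor subunit.

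RefSeq gave a mature sequence for 7 of the 10 miRNAs, and these are shown 5′ to 3′ because the seed, bases 2 to 8 in capitals, sets which messages a miRNA can pair with.
miR-664a-3p: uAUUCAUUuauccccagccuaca
miR-664b-3p: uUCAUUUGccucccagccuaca
miR-664a-5p: aCUGGCUAgggaaaaugauuggau
miR-664b-5p: uGGGCUAAgggagaugauugggua
miR-1291: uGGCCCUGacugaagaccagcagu
miR-1248: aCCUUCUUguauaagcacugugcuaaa
miR-3651: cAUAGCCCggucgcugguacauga
The 7 sequences had 7 different seeds. The 3p arms of miR-664a and miR-664b end in the same 11 bases but differ in length and in seed, so a probe for either could also bind the other to a degree that the files do not measure. Their 5p arms matched at 17 of 23 aligned bases. In GRCh38.p14, miR-664a-3p lies at chr1:220200549-220200571 and miR-664a-5p at chr1:220200586-220200609, both on the minus strand. miR-664b-5p lies at chrX:154768596-154768619 and miR-664b-3p at chrX:154768635-154768656, on the plus strand. miR-1291 lies at chr12:48654494-48654517 (minus), miR-1248 at chr3:186786675-186786701 (plus) and miR-3651 at chr9:92292461-92292484 (minus).

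The mature miRNAs sat at the ends of the snoRNA genes or in their 3′ part, on the assumption that each snoRNA runs on the strand of its miRNA, which the annotation table does not state. miR-1291 began 1 base inside the 5′ end of SNORA2C, and miR-1248 began 1 base before the 5′ end of SNORA81. miR-664a-3p and miR-664b-3p each stopped 3 bases before the 3′ end of their snoRNA, and miR-3651 reached the last base of SNORA84. These 3 sequences carry an ACA in the place that the ACA box takes in this class, 3 bases before the snoRNA's end, and are shown again with that ACA in capitals.
miR-664a-3p: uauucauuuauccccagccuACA
miR-664b-3p: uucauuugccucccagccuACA
miR-3651: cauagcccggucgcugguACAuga
The search was for the letters ACA on the strand as printed. An ACA stood anywhere in 22.7% of 2370 human mature miRNA names in RefSeq, and at the last position or 3 bases before the end in 2.62%. The match describes the letters and does not show how the RNA in the vesicles was made.

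**Figure D1:**
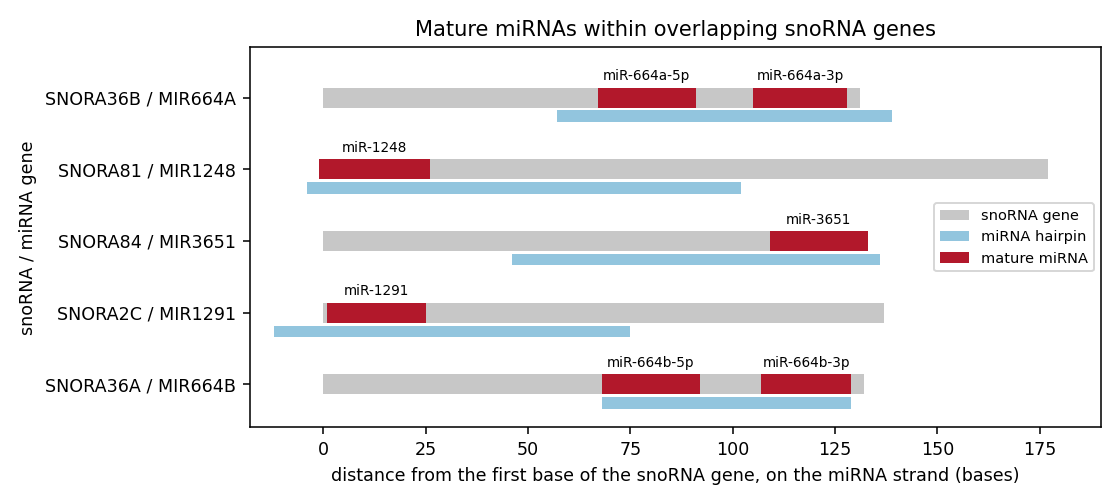
Mature miRNAs (red) and miRNA hairpins (blue) drawn along the 5 overlapping snoRNA genes (grey), by distance in bases from the first base of the snoRNA gene. miR-1248 and miR-1291 sit at the 5′ end, miR-3651 reaches the 3′ end, and the 3p arms of miR-664a and miR-664b stop 3 bases before it.

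All 10 probes lay close to background on both arrays. Signals are spot median intensities on the scanner's linear scale, and the background was read from 320 BLANK spots, whose mean was 58.7 on the HuH-7-M array and 59.7 on the HuH-7-P array with their top and bottom 5% left out. A probe was called above background when it exceeded that mean plus 2 SD, with the SD taken from the same trimmed spots. The limit was 61.2 for the HuH-7-M array and 62.3 for the HuH-7-P array. By this limit 6 of the 10 miRNAs were above background on both arrays and 4 on neither, against 1593 of all 2565 probes on both arrays (62.1%). The BLANK limit is lenient, because all 85 spots labelled No Probe and all 16 spots of the probes named Negative Control 2 and 3 also exceeded it on both arrays. The 16 spots of Negative Control 1 fell on both sides of it. They ran from 55.7 to 105 on the HuH-7-M array and from 55.7 to 92.9 on the HuH-7-P array. The No Probe spots averaged 81.1 ± 5.73 on the HuH-7-M array and 79.8 ± 7.20 on the HuH-7-P array (SD over 85 spots of 1 array). None of the 10 miRNAs reached that mean on either array, and none exceeded the limit drawn from those spots (89.9 on the HuH-7-M array and 86.9 on the HuH-7-P array), which 790 of the 2565 probes (30.8%) exceeded on both arrays. The scanner marked all 10 spots as OK on both arrays.

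Of the 4 miRNA arms from SNORA36A and SNORA36B, 3 exceeded the BLANK limit on both arrays, as did 62.1% of all probes. None of them reached the mean of the No Probe spots. miR-664b-3p had a spot median of 78.3 in HuH-7-M exosomes and 76.4 in HuH-7-P exosomes, and 33 and 25 of the 85 No Probe spots were dimmer than it. Both values lay inside the range of the No Probe spots. miR-664b-5p had 68.0 in HuH-7-M exosomes and 67.0 in HuH-7-P exosomes, close to each other and dimmer than nearly all No Probe spots, with 1 and 0 of the 85 below it. miR-664a-3p had 63.7 in HuH-7-M exosomes and 68.8 in HuH-7-P exosomes. It was the only miRNA of the set that overlapped the BLANK spots while counted as above background, with 2 of 320 BLANK spots brighter on the HuH-7-M array and 0 on the HuH-7-P array. The opposite arm, miR-664a-5p, had 55.1 in HuH-7-M exosomes and 57.3 in HuH-7-P exosomes. It was not above background on either array, and 316 and 300 of the 320 BLANK spots were brighter.

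Among the single-armed miRNAs of H/ACA snoRNAs, miR-3651 and miR-1291 were above the BLANK limit on both arrays and miR-1248 was not. miR-3651, from the 3′ end of SNORA84, had 69.5 in HuH-7-M exosomes and 71.2 in HuH-7-P exosomes. miR-1291, from the 5′ end of SNORA2C, had 65.1 in HuH-7-M exosomes and 65.8 in HuH-7-P exosomes. The HuH-7-M value was the lower one for both before background subtraction, with differences of -1.73 units for miR-3651 and -0.706 for miR-1291, and the miR-1291 difference was 0.287 after subtraction. miR-1248, from the 5′ end of SNORA81, had 56.1 in HuH-7-M exosomes and 56.5 in HuH-7-P exosomes, below 305 and 316 of the 320 BLANK spots.

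Of the C/D snoRNA miRNAs, miR-3653-5p was above the BLANK limit and both arms of miR-3607 were not. miR-3653-5p had 71.7 in HuH-7-M exosomes and 75.5 in HuH-7-P exosomes, and 2 and 16 of the 85 No Probe spots were dimmer. Both values exceeded every BLANK spot. miR-3607-5p had 55.9 in HuH-7-M exosomes and 55.2 in HuH-7-P exosomes, and miR-3607-3p had 54.3 in HuH-7-M exosomes and 56.9 in HuH-7-P exosomes. Between 306 and 319 of the 320 BLANK spots were brighter than each. The other arm of the miR-3653 precursor, miR-3653-3p, had 59.4 in HuH-7-M exosomes and 56.7 in HuH-7-P exosomes and was likewise not above background.

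**Figure D2:**
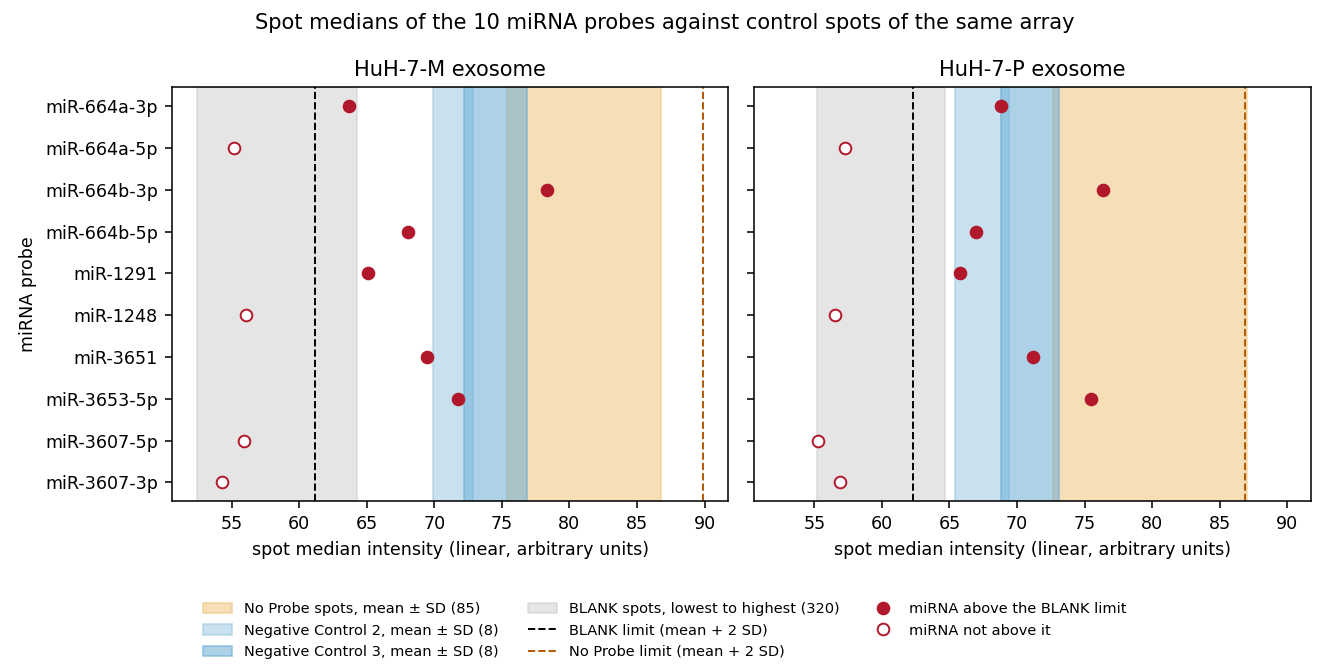
Spot median intensity of the 10 miRNAs on the HuH-7-M array (left) and the HuH-7-P array (right), with control spots of the same array as bands. The 6 filled points exceed the BLANK limit, the 4 open points lie in the lower part of the BLANK range, and all 10 lie below the No Probe limit of 89.9 on the HuH-7-M array and 86.9 on the HuH-7-P array.

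None of the 6 measured miRNAs differed by 2-fold between HuH-7-M and HuH-7-P exosomes. After normexp correction on the BLANK spots with an offset of 50 and quantile normalization, 0 of 6 passed an absolute log2 difference of 1. Of the 1593 probes above background on both arrays, 2.13% did, a share so low that 0 of 6 says little about these miRNAs. On this scale miR-664a-5p, not above background, read 5.66 on both arrays. The brightest of the 6, miR-664b-3p, read 6.12 in HuH-7-M exosomes and 6.06 in HuH-7-P exosomes. A fall from there to background could therefore not have reached a log2 difference of 1, whereas the 1593 probes include brighter ones. Normalized log2 differences of HuH-7-M minus HuH-7-P were 0.06 for miR-664b-3p, 0.06 for miR-664b-5p and 0.02 for miR-1291. They were -0.01 for miR-3651, -0.05 for miR-3653-5p and -0.10 for miR-664a-3p. Their median was 0.0033, beside 0.010 for all 1593 probes. Of the 6, 3 lay above 0 and 3 below, against 45.0% of all measured probes below 0. A difference between single No Probe spots of the arrays had an SD of 0.17 on the log2 scale before quantile normalization (from 85 spots per array). All 6 lay within it, also without scaling between the arrays, where they ran from -0.10 to 0.06. That SD holds only the spread of spots within an array, and the spread between cultures is unknown.

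The offset draws dim probes toward 0, so the BLANK-subtracted signals are given as well, without scaling between the arrays. miR-664a-3p had a signal of 4.97 in HuH-7-M exosomes and 9.10 in HuH-7-P exosomes, a log2 ratio of -0.87. Moving each spot by 1 SD of the BLANK spots, in opposite directions on the 2 arrays, took this ratio from -1.47 to -0.33. That SD was 1.22 on the HuH-7-M array and 1.31 on the HuH-7-P array, with the top and bottom 5% of BLANK spots left out. Over all 320 BLANK spots the SD was wider, 1.63 on the HuH-7-M array and 1.64 on the HuH-7-P array. The ratio of miR-664a-3p was the lowest of the set, at the 5.96th percentile of the 1593 measured probes. On this scale, too, 0 of the 6 passed 2-fold, against 7.78% of the 1593 probes.

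miR-664b-5p, whose ratio was the highest of the 6, had 9.33 in HuH-7-M exosomes and 7.28 in HuH-7-P exosomes, a log2 ratio of 0.36 with a range of -0.08 to 0.82 for the same 1-SD shift. miR-664b-3p had 19.6 in HuH-7-M exosomes and 16.7 in HuH-7-P exosomes, a log2 ratio of 0.23 (0.03 to 0.44). Both arms of miR-664b thus read higher in HuH-7-M exosomes by less than 1.5-fold on this scale, and below 0 on the Spike Control scale described further on, while miR-664a-3p read lower on both scales. miR-3653-5p had 13.0 in HuH-7-M exosomes and 15.8 in HuH-7-P exosomes, a log2 ratio of -0.27 (-0.53 to -0.02). miR-3651 had 10.8 in HuH-7-M exosomes and 11.5 in HuH-7-P exosomes (-0.10). miR-1291 had 6.34 in HuH-7-M exosomes and 6.05 in HuH-7-P exosomes (0.07). The ranges of miR-3651 and miR-1291 spanned 0. Those of miR-664b-3p and miR-3653-5p ended so near 0 that they cannot be read as clear of it, since the SD over all BLANK spots is wider.

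On the linear scale the differences of the 6 signals ran from -4.13 for miR-664a-3p to 2.91 for miR-664b-3p. The difference of 2 BLANK spots had an SD of 1.79 with their top and bottom 5% left out, and 4 of the 6 exceeded it. The 4 include miR-664b-5p at 2.05, close to that SD, which would be wider over all 320 BLANK spots. The difference of 2 No Probe spots, with none left out, had an SD of 9.20, and 0 of the 6 exceeded it. Neither count was set against all 1593 measured probes, so neither marks these miRNAs out. The BLANK spots averaged 58.7 on the HuH-7-M array and 59.7 on the HuH-7-P array. After BLANK subtraction, the other control spots of low signal were brighter on average on the HuH-7-M array. The mean differed by 2.23 units for the 85 No Probe spots (log2 ratio 0.15) and by 7.12 for the 16 spots of Negative Control 1 (0.63). It differed by 4.98 for Negative Control 2 and by 4.54 for Negative Control 3. The spots of Negative Control 1 had an SD of 23.1 on the HuH-7-M array and 15.7 on the HuH-7-P array, wider than their mean difference. Negative Control 2 had a mean signal of 12.7 on the HuH-7-M array and 7.67 on the HuH-7-P array, a log2 ratio of 0.72 over 8 spots per array, and Negative Control 3 had 15.8 on the HuH-7-M array and 11.2 on the HuH-7-P array, a log2 ratio of 0.49. All 1593 measured probes had a median log2 signal ratio of 0.0036. The part of what moved these controls in the values of the 6 miRNAs was not tested.

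All 6 measured miRNAs fell in the dimmest band of the arrays, with a mean signal under 30. The 750 probes of that band had a median log2 signal ratio of -0.05 with quartiles of -0.32 and 0.23, and 7.73% of them passed 2-fold. miR-1291, miR-3651 and miR-3653-5p lay inside those quartiles. miR-664a-3p lay below the lower quartile, miR-664b-5p above the upper one and miR-664b-3p barely above it. The 86 probes with a mean signal over 1000 had a median ratio of 0.64, so the HuH-7-M array was brighter at its bright end, far from the band that holds the snoRNA-overlapping miRNAs.

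**Figure D3:**
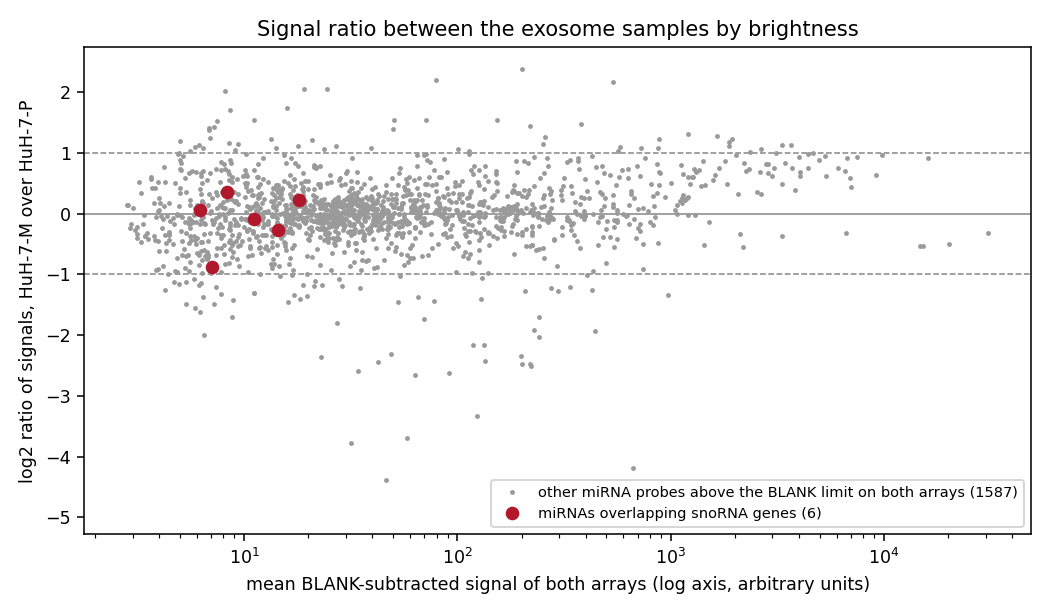
Log2 ratio of BLANK-subtracted signals, HuH-7-M over HuH-7-P, against the mean signal of both arrays (log axis) for the 1593 miRNA probes above the BLANK limit on both. The 6 snoRNA-overlapping miRNAs (red) lie at the dim end, between -0.87 and 0.36, inside the dashed lines at 2-fold.

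The value table that the authors deposited held these miRNAs under names that did not always match the scanner output. For 5 of the 6 measured miRNAs a row with the values expected from the scanner output was found, and the log2 differences in the authors' deposited table were -0.84 for miR-664a-3p, 0.26 for miR-664b-3p, 0.39 for miR-664b-5p, 0.10 for miR-1291 and -0.06 for miR-3651. None of the 5 passed 2-fold, against 8.08% of the probes with such values. The rows were found by matching the BLANK-subtracted signals up to a fixed factor per array. These differences therefore restate the signal ratios above, shifted by a constant, and are no separate measurement. The rows of miR-664a-3p, miR-1291 and miR-3651 carried the identifier that the scanner output gives. The rows holding the values of miR-664b-3p and miR-664b-5p did not. The row named miR-664b-3p in the authors' deposited table read 58.6 for HuH-7-M and 1039 for HuH-7-P, a log2 difference of -4.15, and the scanner output assigns these values to miR-5580-3p (spot medians of 128 and 1325). The row named miR-664b-5p read 8.01 for HuH-7-M and 11.5 for HuH-7-P and belongs to miR-5580-5p in the scanner output. Read by its row names, that table puts miR-664b-3p 17.7-fold lower in HuH-7-M exosomes, where the scanner output has spot medians of 78.3 on the HuH-7-M array and 76.4 on the HuH-7-P array. The files do not state which source is named correctly, and the scanner names are used here. miR-3653-5p has no row under its identifier.

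Few other probes share a seed with the set. RefSeq sequences covered 2264 of the 2565 probes, and 3 further miRNAs had the same bases 2 to 8 as a member, printed with those bases in capitals.
miR-579-3p: uUCAUUUGguauaaaccgcgauu
miR-6775-3p: aGGCCCUGuccucugccccag
miR-4794: uCUGGCUAucucacgagacugu
miR-579-3p has the seed of miR-664b-3p and was not above background on either array, with 58.7 in HuH-7-M exosomes and 57.5 in HuH-7-P exosomes. miR-6775-3p has the seed of miR-1291 and had 70.9 in HuH-7-M exosomes and 69.0 in HuH-7-P exosomes, a log2 signal ratio of 0.39. miR-4794 has the seed of miR-664a-5p and exceeded the BLANK limit on HuH-7-P only, with 59.2 in HuH-7-M exosomes and 65.0 in HuH-7-P exosomes.

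Other miRNAs from precursors described as snoRNA-like were dim as well, apart from miR-140-3p on the HuH-7-P array. A list of 11 such probes held both arms of miR-151a, miR-605, miR-140, miR-215 and miR-6516 and the 3p arm of miR-3653. MIR151A, MIR605, MIR140, MIR215 and MIR6516 overlapped no snoRNA gene in RefSeq. Of the 11, 5 were above the BLANK limit on both arrays, against 62.1% of all probes. The No Probe limit was passed on both arrays by 0 of the 11, against 30.8% of all probes. On the HuH-7-P array alone 1 of the 11 passed it, miR-140-3p. The 5 measured had a median normalized difference of -0.03. miR-140-3p, an abundant miRNA of cartilage, was lower in HuH-7-M exosomes by more than 2-fold, with a spot median of 67.1 in HuH-7-M exosomes and 168 in HuH-7-P exosomes, a normalized log2 difference of -1.41. The other 4 measured lay between -0.03 and 0.06. As a check of the labelled cell type, 4 hepatocyte miRNAs were read. In HuH-7-M and HuH-7-P exosomes, spot medians were 126 and 99.7 for miR-122-5p and 95.6 and 89.6 for miR-885-5p. They were 82.8 and 87.5 for miR-192-5p and 69.6 and 73.6 for miR-194-5p, so the 4 did not move together. Of these 4, the No Probe limit was passed by 2 in HuH-7-M exosomes and by 3 in HuH-7-P exosomes. Of all 2565 probes, 809 and 903 passed it. Of 4 blood miRNAs, the No Probe limit was passed by 0 in HuH-7-M exosomes and by 1 in HuH-7-P exosomes, miR-486-5p (87.2 in HuH-7-M exosomes and 90.3 in HuH-7-P exosomes). All 4 miRNAs of each list exceeded the BLANK limit on both arrays, so that limit does not separate the lists.

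The differences of the 6 miRNAs depended on how the background was treated more than on the scaling between arrays, apart from scaling to the Spike Control spots. Settings that keep an offset of 50 kept all 6 close to 0 unless scaled to the spikes, and settings that subtract the BLANK mean without an offset spread them out. All settings reprocess the same single spot per array, so a shared sign among them is no replication. For miR-664a-3p, the authors' values gave the same -0.84 by scanner row and by row name. miR-664a-3p was below 0 in 12 of 13 alternative settings, from -0.87, and above 0 (0.0016) when the scanner's own background column was used. The same column gave 0.0089 for miR-3653-5p and -0.0059 for miR-664b-5p, the opposite signs to those above. miR-3651 was above 0 in 1 of 13, at 0.02 after scaling to the 75th percentile. Scaling to the Spike Control spots moved the median of all measured probes to -0.58 and all 6 miRNAs below 0, from -0.69 to -0.52, so the sign of miR-664b-3p, miR-664b-5p and miR-1291 depends on that choice.

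**Figure D4:**
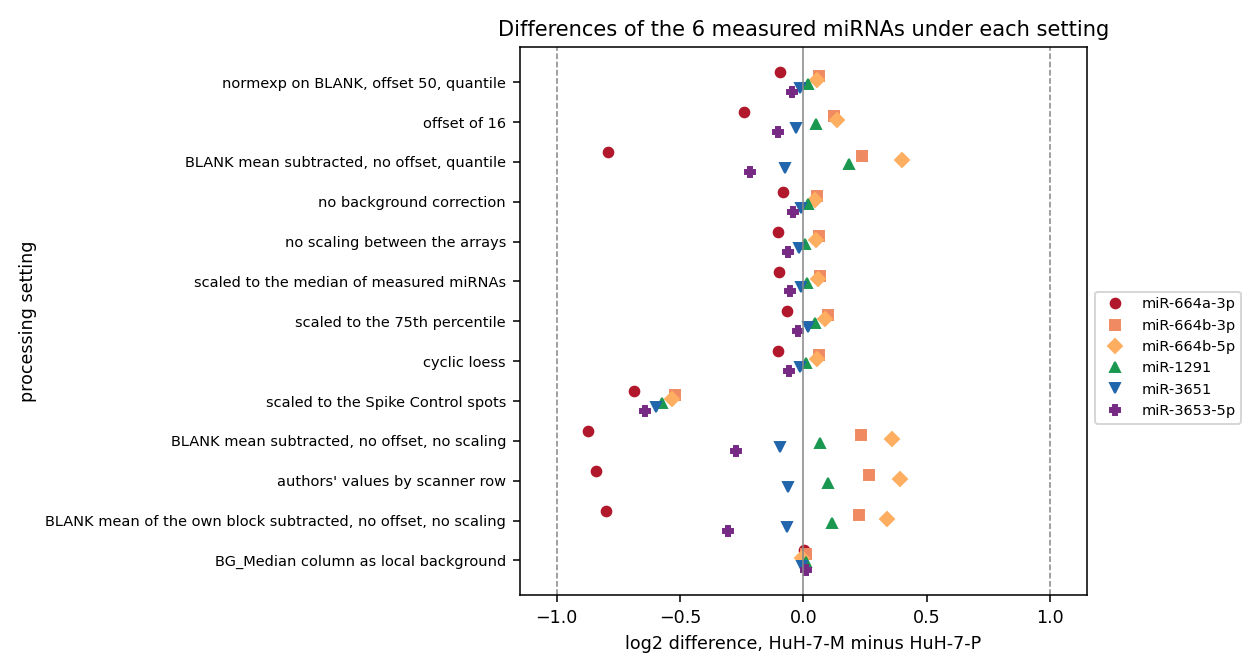
Difference on the log2 scale between HuH-7-M and HuH-7-P (the first minus the second) for the 6 measured miRNAs under each processing setting but 1, with 1 row per setting and dashed lines at 2-fold. The authors' table read by its own row names is not drawn (miR-664b-3p at -4.15 there). All points drawn lie inside 2-fold, the settings without an offset reach -0.87 for miR-664a-3p, and scaling to the Spike Control spots moves all 6 below 0.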

How the data were processed

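Per the labels' protocols, Cy5-labelled RNA was hybridised to 3D-Gene miRNA arrays. The deposited scanner output holds spot median intensity values for 3200 spots per array, with no background subtracted and no scaling, per the file headers. The authors also deposited an intensity table of 2552 rows on a linear scale, with medians of 24.8 for HuH-7-M and 24.9 for HuH-7-P. The sources used here do not say how it was made. Its values could be rebuilt as the BLANK-subtracted spot median divided by 29.8 (HuH-7-M) or 30.5 (HuH-7-P), times 25. Its rows were matched by value, to a tolerance of 1e-06. The column headed as background median tracked the spot median (r = 0.992 on each array, over probes, on log2 values) and was used only as an alternative.

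Background was corrected with normexp on the BLANK spots (nec, limma 3.58.1, R 4.3.3, offset 50), followed by quantile normalization over 2565 miRNA probes and log2. The steps were tested on simulated data in which only bright probes were changed. That test does not cover probes as dim as these 10 miRNAs. Samples were grouped by title, with 1 array each, so no p-value was computed and precision is limited by the number of arrays. Alternatives changed the offset, the background step, the scaling, the detection limit and the source of the values. The members, lists and settings were chosen with earlier results of these data known. All 10 members are described, with other probes that share a seed and list probes at least 2-fold apart.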

Additional observations from a re-analysis of the deposited data

How the results depend on the processing

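The count of 0 miRNAs past 2-fold held under each alternative but the authors' deposited table read by its own row names, where 1 of 5 passed it and the median was -0.53, since 2 of its rows hold values that the scanner output gives under other names. That setting, the own-block BLANK mean and the background column were chosen after seeing the data. With the main offset kept, or with no background correction, these miRNAs were too dim for a fall to background to reach 2-fold. Their count of 0 under such settings therefore says little. The count rests mainly on the settings that subtract the BLANK mean without an offset, which do not have this limit. Scaling to the Spike Control spots gave a median of -0.59. All other medians lay between -0.014 and 0.10. A limit at 3 SD of the BLANK spots left 6 miRNAs above background, and the No Probe limit left 0, so no difference could be given there. No paired analysis was possible because each group has 1 array. Signals this close to the BLANK level bound what can be read from any single ratio.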
